A study of Gallus gallus with 6 samples.

Results

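AXIN2, NKD1 and ZNRF3 encode feedback inhibitors of canonical Wnt signalling that act inside the cell or at its membrane. Their messenger RNA was measured in chicken (Gallus gallus) basilar papillas, the auditory sensory organ of the bird inner ear. The 3 genes were found by name in the authors' deposited tables of changed genes, and they are 3 of 15955 genes in the count table and of 12133 genes with enough counts to be tested. One group was infected with RCAS(A)-Wnt9a, a retrovirus that carries Wnt9a, and was set against controls infected with RCAS(A), its parent virus. In both groups the right otocyst, the embryonic rudiment of the inner ear, was infected on embryonic day 3, and papillas were collected on embryonic day 6. Each group held 3 replicates, and each replicate pooled RNA from 24 papillas. All libraries therefore carry virus, the papilla also holds other cells than sensory ones, and the share of infected cells is not given in the sources used here.

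In canonical Wnt signalling, a Wnt protein bound to a Frizzled receptor and an LRP co-receptor recruits Dishevelled, which disables the destruction complex and lets beta-catenin reach TCF/LEF factors in the nucleus. Several direct targets of those factors dampen the same signal. AXIN2 is a scaffold of the destruction complex, NKD1 (naked cuticle homolog) binds Dishevelled, and ZNRF3 is a transmembrane ubiquitin ligase that removes Frizzled from the cell surface. R-spondins, acting through LGR receptors, clear ZNRF3 from the membrane and so preserve Frizzled. AXIN2 in particular is widely used as a readout of canonical Wnt activity.

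The 6 libraries held 19200235 to 23017150 counts each, and levels are given as CPM (counts scaled to library depth, with TMM between libraries). WNT9A, the gene the virus carries, had 1340, 539 and 427 CPM in RCAS(A)-Wnt9a replicates 1, 2 and 3, whereas RCAS(A) replicates 2, 3 and 4 had 7.90, 6.87 and 10.3 CPM. The levels at WNT9A went with the labels in every library, although counts there do not separate viral from endogenous transcripts. Its call (edgeR adjusted p = 0.0307) was lost without any one RCAS(A) library or without RCAS(A)-Wnt9a replicate 2, with adjusted p of 0.0828 to 0.164.

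All 3 genes were higher in every RCAS(A)-Wnt9a library than in any RCAS(A) library, by 1.26-fold for AXIN2, 1.40-fold for NKD1 and 1.59-fold for ZNRF3. They were selected from the authors' lists for this very difference, so the values that follow describe them and are not a test. The authors' deposited table from edgeR lists log2 fold changes of 0.33 for AXIN2, 0.49 for NKD1 and 0.67 for ZNRF3, with false discovery rates of 0.000607, 6.7e-09 and 1.7e-08. The authors' deposited table from DESeq2 lists smaller log2 fold changes, of 0.29, 0.43 and 0.54. DESeq2 as run here gave 0.33, 0.49 and 0.68 without a prior that shrinks fold changes, and 0.29, 0.43 and 0.54 with it. Both of the authors' deposited tables hold all 3 genes, among 500 genes from edgeR and 437 from DESeq2. In the fit made here all 3 passed the threshold, which 2.27% of tested genes did. The threshold was an adjusted p under 0.05 by edgeR's quasi-likelihood test with Benjamini-Hochberg adjustment over all genes. Among the 511 tested genes of the authors' deposited tables, from which the 3 were chosen, 54.0% passed and 34.1% passed with a rise. Libraries of the groups did not overlap, with RCAS(A)-Wnt9a the higher, in 9.82% of tested genes.

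**Figure D1:**
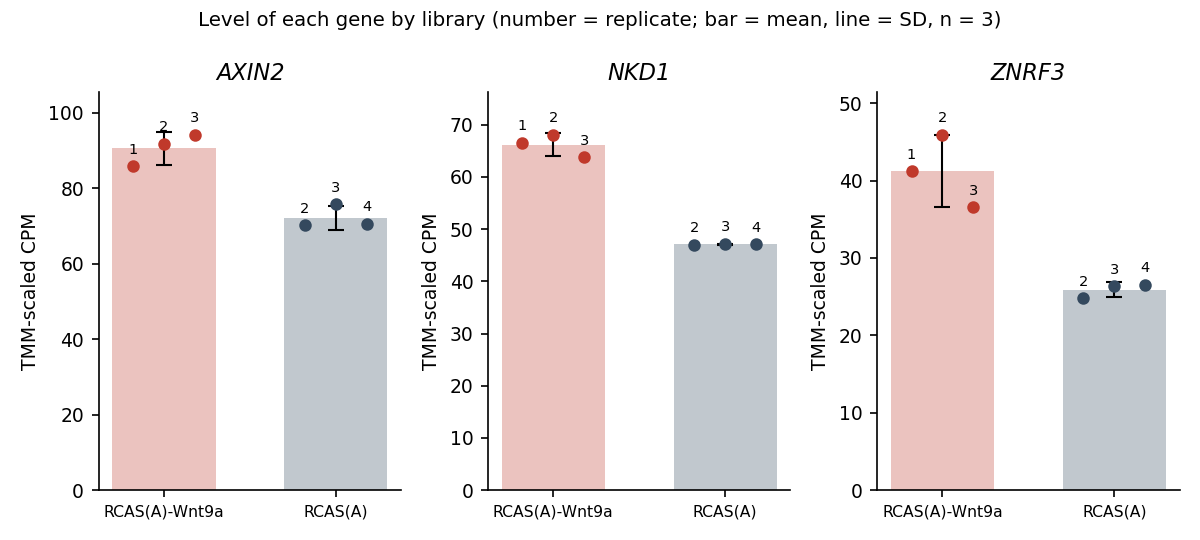
TMM-scaled CPM (y axis, from 0) of AXIN2, NKD1 and ZNRF3 in each library, with RCAS(A)-Wnt9a on the left and RCAS(A) on the right of each panel. Points are libraries numbered by replicate, bars the group mean and lines the SD (n = 3). Every RCAS(A)-Wnt9a point lies above every RCAS(A) point of its panel, and the ZNRF3 points of RCAS(A)-Wnt9a spread from 36.6 to 45.9 CPM.

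AXIN2 (ENSGALG00000004021) is listed in galGal4 at chromosome 18, 7895217 to 7917904. It had 85.9, 91.9 and 94.3 CPM in RCAS(A)-Wnt9a replicates 1, 2 and 3, whereas RCAS(A) replicates 2, 3 and 4 had 70.2, 75.9 and 70.6 CPM. The highest control library, RCAS(A) replicate 3, lay 10.02 CPM below the lowest RCAS(A)-Wnt9a library. The means were 90.7 ± 4.32 CPM with RCAS(A)-Wnt9a and 72.2 ± 3.16 CPM with RCAS(A) (SD, n = 3 each). Its log2 fold change, 0.33 (SE 0.064), was the smallest of the 3 genes. Without RCAS(A) replicate 2, RCAS(A) replicate 4 or RCAS(A)-Wnt9a replicate 2, AXIN2 no longer passed the threshold, with edgeR adjusted p of 0.0946, 0.0839 and 0.0547.

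NKD1 (ENSGALG00000003767) is listed at chromosome 11, 5725576 to 5829415 in the same build. It had 66.6, 68.1 and 63.7 CPM in RCAS(A)-Wnt9a replicates 1, 2 and 3, whereas RCAS(A) replicates 2, 3 and 4 had 47.0, 47.2 and 47.1 CPM. The control libraries were nearly identical for NKD1, with a coefficient of variation of 0.205%, whereas counting error alone would give 3.12% at their mean count. That SD is thus below what counting allows on average and understates the error of the control mean. The means were 66.1 ± 2.21 CPM with RCAS(A)-Wnt9a and 47.1 ± 0.097 CPM with RCAS(A) (SD, n = 3 each), a log2 fold change of 0.49 with an SE of 0.063. NKD1 passed the threshold in all 6 fits that left out 1 library.

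ZNRF3 (ENSGALG00000005803) is listed at chromosome 15, 7788956 to 7795744, a span of 6789 bases against 22688 for AXIN2 and 103840 for NKD1. It had 41.2, 45.9 and 36.6 CPM in RCAS(A)-Wnt9a replicates 1, 2 and 3, whereas RCAS(A) replicates 2, 3 and 4 had 24.8, 26.4 and 26.5 CPM. The groups did not overlap, yet RCAS(A)-Wnt9a replicate 2 stood at 177% of the control mean and replicate 3 at 141%. The means were 41.2 ± 4.68 CPM with RCAS(A)-Wnt9a and 25.9 ± 0.974 CPM with RCAS(A) (SD, n = 3 each). Its log2 fold change, 0.67 (SE 0.092), was the largest of the 3 genes and the one with the widest error. ZNRF3 passed the threshold in all 6 fits that left out 1 library, in which its log2 fold change lay between 0.59 and 0.75. As the 3 genes were chosen from these same libraries, such passes and losses describe them and are not a test.

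The observed spread between pools differed among the 3 genes, from 3 pools a group, and this difference in spread was not tested. With RCAS(A)-Wnt9a the coefficient of variation was 4.76% for AXIN2, 3.34% for NKD1 and 11.4% for ZNRF3, while counting error alone would give 2.28%, 2.67% and 3.37%. With RCAS(A) it was 4.37% for AXIN2 and 3.76% for ZNRF3, against 2.52% and 4.22% from counting. The excess over counting error was thus greatest for ZNRF3 in the RCAS(A)-Wnt9a pools. The biological coefficient of variation fitted by edgeR was 5.95% for AXIN2, 5.72% for NKD1 and 7.90% for ZNRF3, where the common value over all genes was 8.06%.

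The order of the RCAS(A)-Wnt9a libraries was the same for NKD1 and ZNRF3 and differed for AXIN2 and WNT9A. For WNT9A replicate 1 was highest, at more than the other replicates together. For NKD1 and ZNRF3 replicate 2 was highest and replicate 3 lowest, while for AXIN2 replicate 3 was highest and replicate 1 lowest. Counting does not resolve all of these ranks. NKD1 had 66.6 and 68.1 CPM in replicates 1 and 2, with counting errors of 2.60% and 2.56%. AXIN2 had 91.9 and 94.3 CPM in replicates 2 and 3, with counting errors of 2.20% and 2.37%. None of the 3 genes had the order of WNT9A, and a relation between these levels within the groups was not tested.

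**Figure D2:**
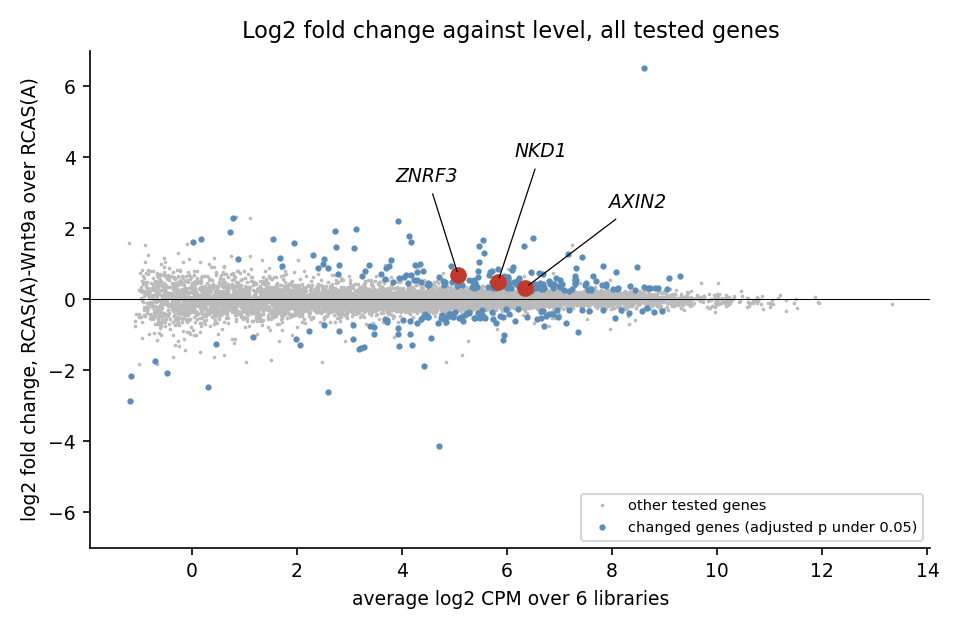
Log2 fold change of RCAS(A)-Wnt9a over RCAS(A) (y axis) against average log2 CPM (x axis) for 12133 tested genes, with the 276 changed genes in blue and AXIN2, NKD1 and ZNRF3 in red. The 3 genes sit at log2 fold changes of 0.33, 0.49 and 0.67, and the highest point is WNT9A.

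Ordered from the largest rise, ZNRF3 stood at rank 143, NKD1 at 290 and AXIN2 at 604 of 12133 genes, whose median log2 fold change was -0.0037. NOTUM, whose product removes the lipid from Wnt proteins and so gives the same kind of feedback outside the cell, rose by 1.49 on the log2 scale (edgeR adjusted p = 2.01e-06).

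Ratios of counts within 1 library do not depend on its depth, so the 3 genes were also set against each other. ZNRF3 had 0.480, 0.50 and 0.388 counts per count of AXIN2 in RCAS(A)-Wnt9a replicates 1, 2 and 3, against 0.353, 0.348 and 0.376 in RCAS(A) replicates 2, 3 and 4. NKD1 had 0.775, 0.741 and 0.676 counts per count of AXIN2 with RCAS(A)-Wnt9a, against 0.670, 0.623 and 0.667 with RCAS(A). ZNRF3 had 0.619, 0.675 and 0.574 counts per count of NKD1 with RCAS(A)-Wnt9a, against 0.527, 0.558 and 0.563 with RCAS(A). In each ratio the groups stayed apart, but RCAS(A)-Wnt9a replicate 3 came within 0.012, 0.0059 and 0.010 of the highest control library. Counting error in that replicate was 2.37% for AXIN2, 2.89% for NKD1 and 3.81% for ZNRF3, so counting does not resolve these gaps. The last ratio is the first divided by the second and adds nothing separate. These ratios come from the contrast that chose the genes and were not tested.

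**Figure D3:**
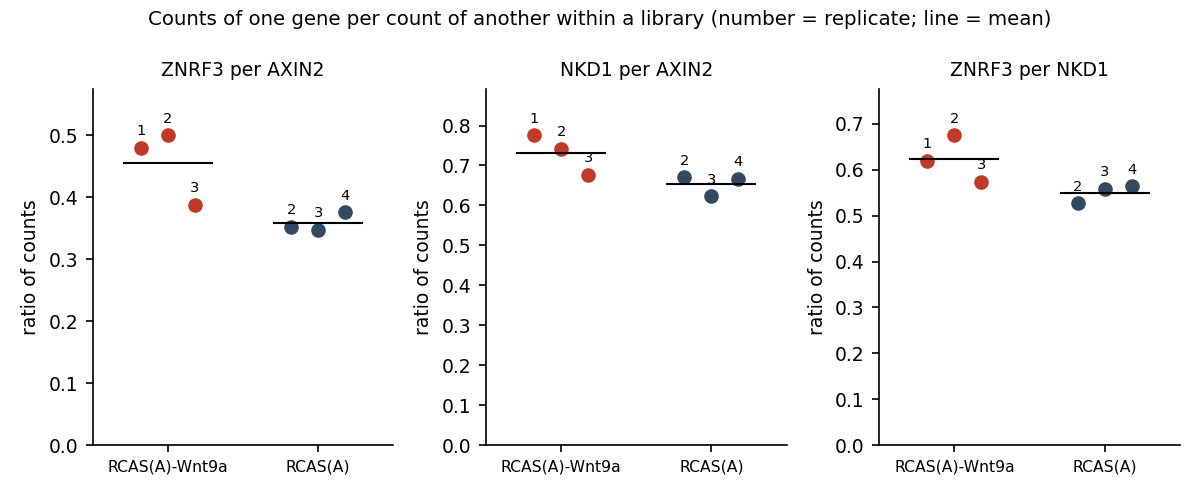
Counts of one gene per count of another within each library (y axis, from 0), with RCAS(A)-Wnt9a left of RCAS(A) in each panel, points numbered by replicate and lines at the group mean. All RCAS(A)-Wnt9a points lie above the RCAS(A) points, and replicate 3 of RCAS(A)-Wnt9a lies nearest to them.

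Per length of transcript as annotated, NKD1 and not AXIN2 was the most abundant of the 3. The authors deposited 1 pooled FPKM (a level corrected for transcript length and depth) for each group, with confidence bounds. NKD1 stood at 42.6 FPKM with RCAS(A)-Wnt9a (34.9 to 50.3) and 30.4 FPKM with RCAS(A) (24.6 to 36.2). AXIN2 stood at 24.7 FPKM with RCAS(A)-Wnt9a (20.4 to 28.9) and 19.5 FPKM with RCAS(A) (16.1 to 22.97). ZNRF3 stood at 16.6 FPKM with RCAS(A)-Wnt9a (13.3 to 19.8) and 10.5 FPKM with RCAS(A) (8.25 to 12.8). The order rests on annotated transcript lengths. By counts AXIN2 was above NKD1, with means of 72.2 and 47.1 CPM in the RCAS(A) group. CPM divided by FPKM in that group implies lengths of 1.55 kb for NKD1, 3.70 kb for AXIN2 and 2.46 kb for ZNRF3. These lengths are derived and were not read from an annotation. Whether the gene models, such as that of NKD1 with its short implied length and the short ZNRF3 locus, are complete was not checked. Within each group the bounds of neighbouring genes in this order did not overlap. Between the groups the bounds overlapped for AXIN2 and NKD1 and did not for ZNRF3. In the RCAS(A) group AXIN2 was above 65.3% of the listed genes by FPKM, NKD1 above 76.1% and ZNRF3 above 52.8%, so each stood above the median listed gene in the control papilla. The pooled FPKM come from the same libraries and add no independent evidence of the difference.

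The genes lie on different chromosomes, and none of the genes tested around them passed the threshold. No other listed locus overlapped any of the 3, and the nearest began or ended 23797 bases from AXIN2, 10083 from NKD1 and 12666 from ZNRF3. The one nearest to NKD1 was not among the genes tested, and the nearest tested gene there lay 55512 bases away. Within 100 kb of the 3 loci, 18 other genes were listed and 14 were tested, with log2 fold changes of -0.059 to 0.19. Of these, 0 passed the threshold by edgeR's quasi-likelihood test. As 2.27% of all tested genes passed in that fit, 0 of 14 is not an unusual count and says little about these loci. By DESeq2, limma-voom and edgeR's exact test, which called 439, 275 and 503 genes in all, 0 passed as well. In the quasi-likelihood fit 0 had an unadjusted p under 0.05, and the share of all genes below that value is not given here.

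Other genes of the pathway were read through lists of 126 genes, of which only those named in the authors' deposited tables, 24 in all, could be matched to a count. Because those tables list changed genes, the counts do not measure how much of the pathway moved. Apart from AXIN2, NKD1 and ZNRF3, 10 of 21 matched genes rose, 4 fell and 7 missed the threshold by edgeR's quasi-likelihood test. All 7 that missed it are in the authors' deposited tables of changed genes. DESeq2 and edgeR's exact test, as run here, each called 20 of the 21, so a miss does not mean no change. The 10 that rose include WNT9A, the gene carried by the virus. Over all tested genes 1.43% rose and 0.841% fell, but of the genes in those tables that were tested, 34.1% rose and 54.0% passed in either direction. The median log2 fold change of the 21 was 0.37.

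Inside the cell, the counterparts of AXIN2 and NKD1 were mostly without a name. AXIN2 was the only matched gene of 15 in the destruction complex list. DACT1, another Dishevelled-binding protein gene and the only other matched gene beside NKD1 in a list of 9, had 99.6 ± 8.48 CPM with RCAS(A)-Wnt9a and 84.0 ± 1.66 CPM with RCAS(A) (SD, n = 3 each). Its log2 fold change of 0.25 missed the threshold (edgeR adjusted p = 0.0951). The paralogs AXIN1, NKD2 and RNF43 were not analysed here.

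At the membrane, the genes that act with or on ZNRF3 moved both ways. RSPO3 and RSPO2, the R-spondin ligands that clear ZNRF3, fell. RSPO3 had 9.03 ± 1.42 CPM with RCAS(A)-Wnt9a and 33.2 ± 6.36 CPM with RCAS(A) (SD, n = 3 each; log2 fold change -1.88, edgeR adjusted p = 0.000101). RSPO2 had a log2 fold change of -0.49 (edgeR adjusted p = 0.0237). This call was lost on leaving out each library other than RCAS(A)-Wnt9a replicate 3, with edgeR adjusted p of 0.0767 to 0.107. The call was also lost with the replicate numbers as a block (edgeR adjusted p = 0.0762), a fit that rests on the libraries numbered 2 and 3 alone. LGR5, an R-spondin receptor, had a log2 fold change of 0.27 and missed the threshold (edgeR adjusted p = 0.140). Among Frizzled receptors, the substrates of ZNRF3, FZD4 rose by 0.78 on the log2 scale and FZD10 had a log2 fold change of -1.16 (edgeR adjusted p = 0.000677 and 0.0151). FZD10 missed the threshold without any one RCAS(A) library or without RCAS(A)-Wnt9a replicate 3, with adjusted p of 0.0509 to 0.0729.

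Outside the cell, NOTUM, APCDD1, TRABD2B and GPC3 rose and SFRP2 fell. The other matched Wnt ligand, WNT7B, had a log2 fold change of -0.36 and missed the threshold (edgeR adjusted p = 0.128). WIF1, a secreted Wnt inhibitor, differed by 0.72 on the log2 scale, short of the threshold (edgeR adjusted p = 0.0607). APCDD1, a membrane-bound Wnt inhibitor, and TRABD2B, a protease that cleaves Wnt proteins, rose by 0.32 and 0.33 on the log2 scale, close to AXIN2. GPC3, a glypican of the cell surface, rose by 0.43 on that scale. SFRP2, a secreted Wnt-binding protein, had a log2 fold change of -0.41 (edgeR adjusted p = 0.00231). APCDD1 missed the threshold without RCAS(A) replicate 2 or 3 (edgeR adjusted p = 0.0529 and 0.0568), and TRABD2B without RCAS(A) replicate 2 (edgeR adjusted p = 0.0830). GPC3 missed it without RCAS(A)-Wnt9a replicate 2, RCAS(A) replicate 2 or RCAS(A) replicate 4 (edgeR adjusted p = 0.0578, 0.0554 and 0.0527).

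In the nucleus, LEF1, TCF7 and PYGO1, all of which work with beta-catenin in transcription, rose. LEF1 was close to NKD1 in size, rising by 0.50 on the log2 scale (SE 0.065; adjusted p = 0.000903 by edgeR), and TCF7 rose by 1.70 at a low level, with a mean of 4.30 CPM with RCAS(A)-Wnt9a and 1.33 CPM with RCAS(A). PYGO1 rose by 0.31 and missed the threshold on leaving out each library other than RCAS(A)-Wnt9a replicate 1 (edgeR adjusted p = 0.0731 to 0.161), with limma-voom (adjusted p = 0.0572) and with scaling by library size alone (edgeR adjusted p = 0.0553). Of the other common targets, MSX1 rose by 2.19 on the log2 scale, a call lost without RCAS(A) replicate 4 (edgeR adjusted p = 0.0618). SP5, TNFRSF19 and MSX2 had log2 fold changes of 1.23, 0.37 and 2.31 that missed the threshold. SP5 and MSX2 were also at low levels, with means of 2.89 and 2.85 CPM with RCAS(A)-Wnt9a and 1.23 and 0.574 CPM with RCAS(A).

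**Figure D4:**
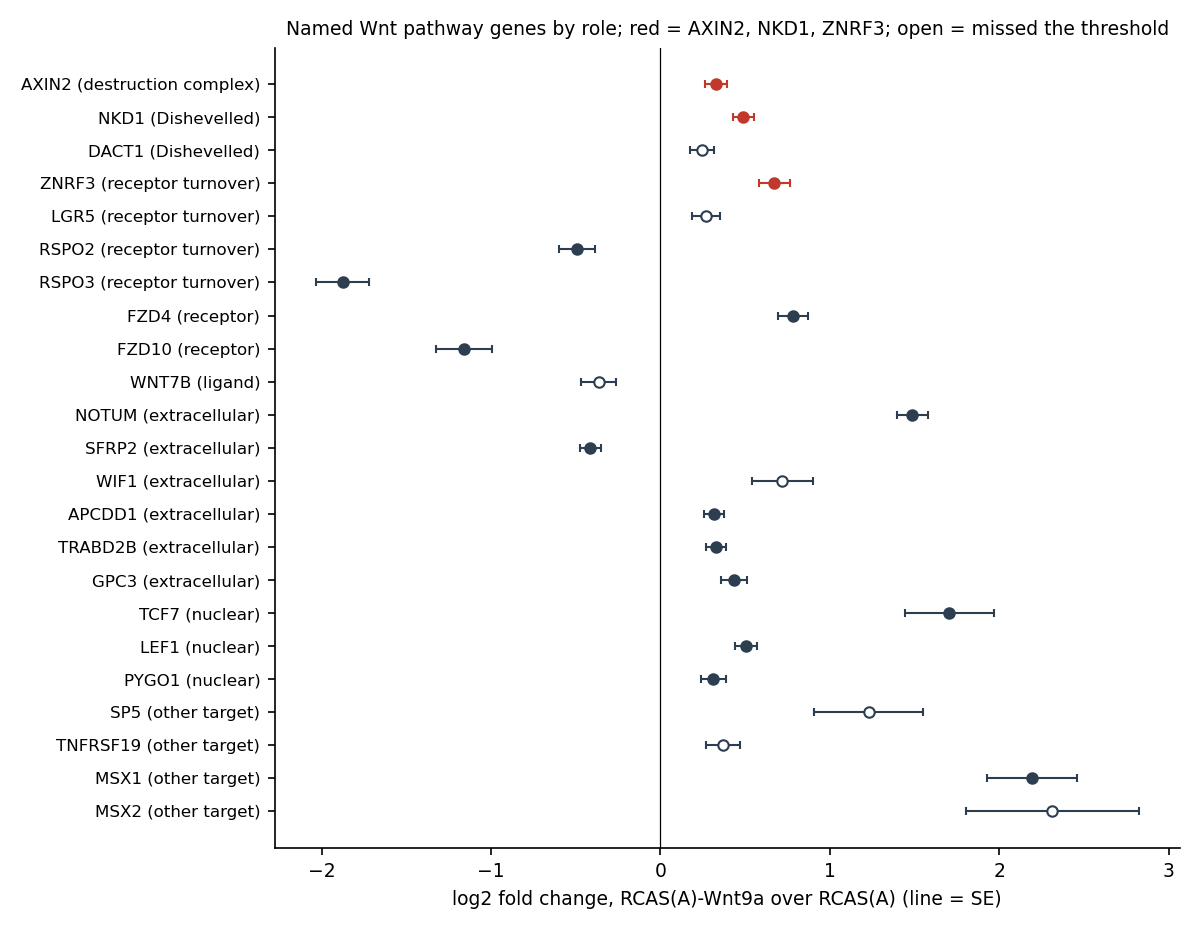
Log2 fold change of RCAS(A)-Wnt9a over RCAS(A) (x axis, lines are the SE) for the matched Wnt pathway genes other than WNT9A, ordered by role. AXIN2, NKD1 and ZNRF3 are red and open points missed the threshold. The 3 red points lie between 0.33 and 0.67, with RSPO3, FZD10, RSPO2, SFRP2 and WNT7B on the negative side.

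The genes whose levels ran most like those of the 3 across the 6 libraries were sought among 455 other named genes with an average log2 CPM of at least 1. The names come only from the authors' deposited tables of changed genes. Likeness was the root mean square distance between log2 CPM centred on each gene's mean. Nearest to AXIN2 were INPP4B (a phosphoinositide phosphatase), NUBPL (a factor of mitochondrial complex I assembly) and SLC4A4 (a bicarbonate cotransporter), at distances of 0.029, 0.029 and 0.032. Nearest to NKD1 were TDRP, CCNJL and the chemokine receptor gene CXCR7, at 0.046, 0.055 and 0.056. Nearest to ZNRF3 were EEPD1, the anchoring protein gene AKAP5 and FAK (focal adhesion kinase), at 0.051, 0.083 and 0.083. The 3 genes were not each other's nearest. The distance was 0.105 between NKD1 and AXIN2, 0.116 between NKD1 and ZNRF3, and 0.206 between AXIN2 and ZNRF3. Ranked from AXIN2, NKD1 stood at 89 and ZNRF3 at 190. Ranked from NKD1, AXIN2 stood at 58 and ZNRF3 at 87. Ranked from ZNRF3, NKD1 stood at 16 and AXIN2 at 118. These ranks also depend on how many named genes lie near each starting gene. The distance keeps the difference between the groups, so it depends largely on the log2 fold change, the value by which the genes were chosen. The genes nearest to AXIN2 had log2 fold changes of 0.31, 0.29 and 0.30, those nearest to NKD1 0.49, 0.49 and 0.40, and those nearest to ZNRF3 0.63, 0.65 and 0.67. Likeness within the groups was not tested.

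The pools held more than 1 cell type, and fewer cells of a type and less RNA per cell cannot be told apart in bulk RNA. Of the sensory epithelium markers 6 of 19 could be matched (SOX2, ISL1, PAX2, TECTB, PROX1 and DLX5), and all were detected in every library. These markers moved both ways: SOX2, ISL1 and TECTB fell, PAX2 and DLX5 rose (edgeR adjusted p = 0.0439 and 0.000987), and PROX1 missed the threshold. With 1 library left out in turn, the calls of ISL1 and DLX5 held each time. That of SOX2 was lost without RCAS(A) replicate 3 or 4, that of TECTB on leaving out each library other than RCAS(A)-Wnt9a replicates 1 and 2, and that of PAX2 on leaving out each library other than RCAS(A)-Wnt9a replicate 3 (edgeR adjusted p = 0.0528 to 0.221). The summed level of the 6 markers was 249.5 to 293 CPM with RCAS(A)-Wnt9a and 364 to 400.4 CPM with RCAS(A). The 6 matched markers of 13 for periotic mesenchyme and cartilage summed to 947 to 1114 CPM with RCAS(A)-Wnt9a and 815 to 868 CPM with RCAS(A). Most of that sum was COL1A2 and TBX18, which both missed the threshold (edgeR adjusted p = 0.114 and 0.0796), as did ACAN. PRRX1 and HAPLN1 rose, and LUM had a log2 fold change of -0.52 (edgeR adjusted p = 0.0375) whose call was lost on leaving out each library other than RCAS(A)-Wnt9a replicate 1. The endothelial marker FLT1, the only one of 8 matched, was at 24.7 to 26.0 CPM with RCAS(A)-Wnt9a and 18.6 to 20.3 CPM with RCAS(A). The blood marker TFRC, 1 of 11, was at 151 to 161 CPM with RCAS(A)-Wnt9a and 129 to 137 CPM with RCAS(A). The glial marker CDH19, 1 of 7, was at 12.3 to 17.1 CPM with RCAS(A)-Wnt9a and 9.62 to 10.5 CPM with RCAS(A). FLT1, TFRC and CDH19 passed the threshold narrowly (edgeR adjusted p = 0.0341, 0.0428 and 0.0464). The call of FLT1 was lost on leaving out any one library. Those of TFRC and CDH19 were lost on leaving out each library other than RCAS(A)-Wnt9a replicate 3. With all 6 libraries, PAX2, TFRC and CDH19 also missed the threshold with limma-voom (adjusted p = 0.0541, 0.0501 and 0.0662). So they did with scaling by library size alone and with the replicate numbers as a block (edgeR adjusted p = 0.0606 to 0.160). CDH19 missed it too with a filter at a CPM of at least 2 (edgeR adjusted p = 0.0511). LUM missed it with library size alone and FLT1 with the block (edgeR adjusted p = 0.0594 and 0.110). The neuronal marker NTRK2, 1 of 12, was at 64.5 to 73.2 CPM with RCAS(A)-Wnt9a and 90.2 to 109.7 CPM with RCAS(A). It passed the threshold (edgeR adjusted p = 0.00601). The 4 matched of 7 muscle markers summed to 3.25 to 5.57 CPM with RCAS(A)-Wnt9a and 8.63 to 22.1 CPM with RCAS(A), with MYOD1 at 0 in 1 library. All 4 missed the threshold (edgeR adjusted p = 0.0752 to 0.273). ACTC1, the highest of them, had 2.49 ± 0.896 CPM with RCAS(A)-Wnt9a and 8.46 ± 5.64 CPM with RCAS(A) (SD, n = 3 each). No leukocyte marker was matched. These markers are matched because they are in the authors' deposited tables, and their part in the levels of AXIN2, NKD1 and ZNRF3 was not tested.

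**Figure D5:**
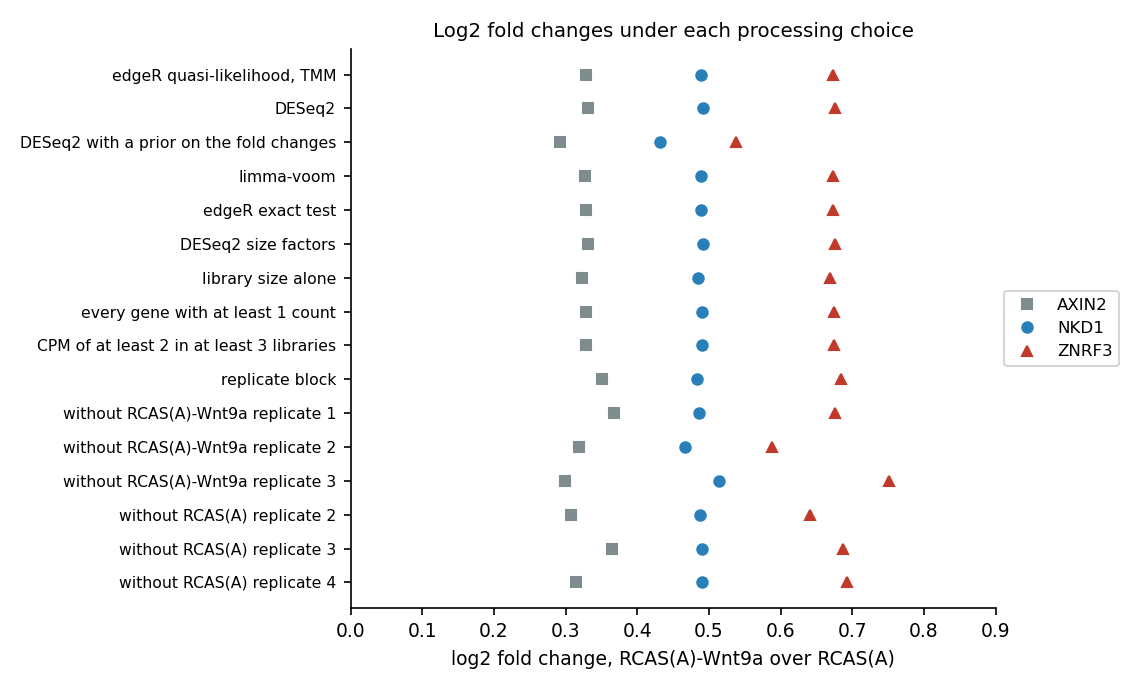
Log2 fold change of RCAS(A)-Wnt9a over RCAS(A) (x axis, from 0) for AXIN2, NKD1 and ZNRF3 under each processing choice and with each library left out (y axis). Under every choice the order is AXIN2, NKD1, ZNRF3 from low to high, with DESeq2 and a prior on the fold changes giving the lowest ZNRF3 value, 0.54.

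The order of the log2 fold changes, AXIN2 below NKD1 below ZNRF3, was the same under all 15 alternatives shown. Their sign was fixed in advance by the choice of genes.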

How the data were processed

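RNA-seq counts of 3 RCAS(A)-Wnt9a and 3 RCAS(A) pools were grouped by the sample titles. Per the submitters' processing notes, the build was galGal4 and the tools were TopHat2, DESeq, DESeq2 and edgeR. No source used here gives the counting tool, strand setting or annotation, and reads of antisense partners cannot be told apart. The authors deposited whole-number counts per gene, a DESeq2 table with a mean normalized signal, log2 fold changes, a Wald score and p-values, an edgeR table with log2 fold changes and p-values, and pooled FPKM, per the file headers. Counts were filtered with filterByExpr (12133 of 15955 genes), TMM-scaled and fitted in edgeR 4.0.16 under R 4.3.3 (robust glmQLFit, two-sided glmQLFTest). The procedure was tested on simulated data for recovery of changed genes only. False calls were not counted, and every simulated rise was larger than those of AXIN2 and NKD1. The SE is the log2 fold change divided by the square root of F. With 3 against 3 libraries an exact permutation test cannot go below 0.1. The authors' deposited tables name 490 of their 522 genes, matched to RefSeq symbols (GRCg7b) for names only: 150 by accession, 324 by symbol, 1 by description and 15 as written. Named pathway genes are every list member past the threshold and values for those that missed it, plus the 3 genes nearest in pattern to each of AXIN2, NKD1 and ZNRF3. These genes, the lists and the alternatives were chosen with earlier results of these data known. Alternatives used DESeq2 1.42.0 and limma 3.58.1; tables and plots used Python 3.11.15, pandas 2.3.3 and matplotlib 3.10.9. Every pair of replicates differed by more than counting error (chi-square per degree of freedom 4.49 to 12.3).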

Additional observations from a re-analysis of the deposited data

How the results depend on the processing

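The log2 fold changes of AXIN2, NKD1 and ZNRF3 kept their sign in all alternatives run, and with 1 library left out they lay between 0.30 and 0.37, 0.47 and 0.51, and 0.59 and 0.75. DESeq2 with shrunken fold changes (a prior), chosen after the data were seen, gave 0.29, 0.43 and 0.54, against 0.29, 0.43 and 0.54 in the authors' deposited table from DESeq2. The number of these 3 genes past the threshold was 2 or 3 with 1 library left out, a count added after the data were seen. That count is not a test, as the genes were chosen from these same libraries. The changed genes numbered 276, and 439 with DESeq2, 439 with DESeq2 and a prior, 503 with edgeR's exact test, and 146 to 294 with 1 library left out, lowest without RCAS(A) replicates 4 (146) and 2 (148). Called pathway genes other than the 3 numbered 14, and 7 to 14 with 1 library left out, lowest without RCAS(A) replicates 2 (7) and 4 (9). The causes were not tested. The titles share replicate numbers 2 and 3 only, and the correlation of their deviations was -0.006 and 0.18, so the numbers are not shown to pair the pools. A replicate block called 537 genes and gave AXIN2, NKD1 and ZNRF3 log2 fold changes of 0.35, 0.48 and 0.68. In that fit numbers 1 and 4 each occur in 1 group only. The difference thus rests on the libraries numbered 2 and 3 alone, with little left to estimate error. Scaling by library size alone left the nearest genes in pattern as they were, because a shift of a whole library cancels in the distance. Promoter motif shares were not run. At these depths counting error in single libraries was 2.20% to 4.31% for the 3 genes.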
